A study of Mus musculus with 59 samples.

Results

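Genes of the cell cycle and of DNA replication were followed in the livers of mice given either of 2 diets, arsenite, or the glucocorticoid dexamethasone. The set holds 34 genes, fixed by name: enzymes of nucleotide supply, cyclins and factors of the G1 and S phases, the proteins that license and copy DNA, and the kinases and structural proteins of mitosis. A gene entered through Affymetrix probe sets annotated with its symbol alone, and where it had several, the brightest on average across the 59 arrays stood for it. By this rule 33 of the 34 genes were measured, among 18193 genes in all. No probe set carried Ccnb1 as its only symbol, so that gene was not analysed here.

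All animals were male C57BL/6 mice, an inbred laboratory strain, 6 weeks old at the start and acclimated to their diet for 2 weeks. One chronic control group ate AIN-76A, a purified diet, and another ate LRD-5001, a grain-based chow, with no arsenite added. On each diet, 3 further groups received sodium arsenite for 5 weeks, at 10 ppb in the drinking water, at 100 ppb in the drinking water, or at 10 ppb in the food. In 4 more groups, all on AIN-76A, mice were killed 8 hours after an intraperitoneal injection of saline, of dexamethasone at 1 mg/kg, of sodium arsenite at 1 mg/kg, or of both agents together. Every group had 5 arrays, 1 per liver, except AIN-76A with 100 ppb in water, which had 4, and the labels call these biological replicates. The p-values rest on the spread between these livers, and their number limits the precision.

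A cell that is to divide first makes cyclin D and cyclin E, which release the E2F factors, and E2F then switches on genes for deoxynucleotide synthesis and for the MCM helicase that opens DNA at origins. Later, Cdk1 with cyclins A and B drives mitosis, and the genes of that stage share promoter elements bound by the DREAM and MuvB complexes. Adult hepatocytes rest outside the cycle, re-enter it after injury or loss of tissue, and otherwise divide rarely.

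The values are log2 expression values that the authors deposited after robust multi-array averaging (RMA). Over all probe sets they ran from 1.17 to 14.15, and the array medians lay between 2.42 and 2.59. The 8 hepatocyte markers (Alb, Ttr, Apoa1 and others) had a mean level between 12.92 and 13.39 in every liver, so the arrays carry the tissue named on their labels. In each group 1 array stood apart along the first principal component of the within-group deviations, a component that carried 27.63% of their variance. Those 12 arrays had an upper quartile lower by 0.27 ± 0.08 (SD) on the log2 scale than the others of their groups. Where leaving them out gained or lost a call, that value is given beside the result. In the fits, a probe set was called changed at an adjusted p under 0.05 (limma, Benjamini-Hochberg over 45037 probe sets).

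Most mitosis genes lay at the bottom of the scale in these livers. As a guide to background, the 95th percentile of the means of 44 probe sets for olfactory receptors, which liver is not known to use, was 2.59. Of the 33 genes, 20 had a mean over all arrays above this value, and the same number lay above the 99th percentile (2.66). By role these were 3 of 4 genes of nucleotide supply, 3 of 4 of G1 and S entry, 8 of 9 of origin licensing and replication, 2 of 3 of the group of cyclins A and B and Cdk1, and 4 of 13 mitosis genes. The 13 genes not above it were Tyms, Ccne2, Cdc6, Ccnb2, Mki67, Top2a, Bub1, Bub1b, Aurka, Aurkb, Birc5, Ttk and Kif11. For these a low value says little about RNA amount, and a difference could be missed. Probe sets differ in how strongly they respond, so levels were compared between livers and not between genes.

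Pcna, the sliding clamp that holds DNA polymerase on its template, varied little, since its 59 values lay between 7.72 and 8.73, and its group means between 7.97 (100 ppb in water on AIN-76A) and 8.39 (10 ppb in food on AIN-76A). Mcm7, a helicase subunit, ran from 4.85 to 7.06 with group means from 5.41 to 6.14. Ccnd1, cyclin D1, spread from 3.99 to 9.10, and its group means from 4.25 after dexamethasone to 6.52 on LRD-5001 with 10 ppb in food. The within-group SD pooled over the 12 groups was 0.21 for Pcna, 0.35 for Mcm7 and 0.81 for Ccnd1.

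Group means of Cdt1, the loader of the helicase, ran from 2.95 to 4.82, those of Mcm6 from 3.69 to 5.06 and those of Mcm5 from 2.57 to 3.65. Ccne1, cyclin E1, had group means from 3.37 to 3.70 and E2f1 from 2.56 to 2.85, both within 1 pooled SD or little more (0.32 and 0.29). Group means of Mcm2 ran from 2.87 to 3.13, of Mcm3 from 2.42 to 3.03 and of Mcm4 from 2.83 to 3.51. Among mitosis genes above background, Cdc20, which activates the ligase that ends metaphase, had group means from 3.59 to 3.91 and Plk1 from 2.53 to 2.99. Tyms, Ccne2, Cdc6, Bub1, Bub1b, Aurkb and Kif11 stayed at or under 2.87 in every liver.

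**Figure D1:**
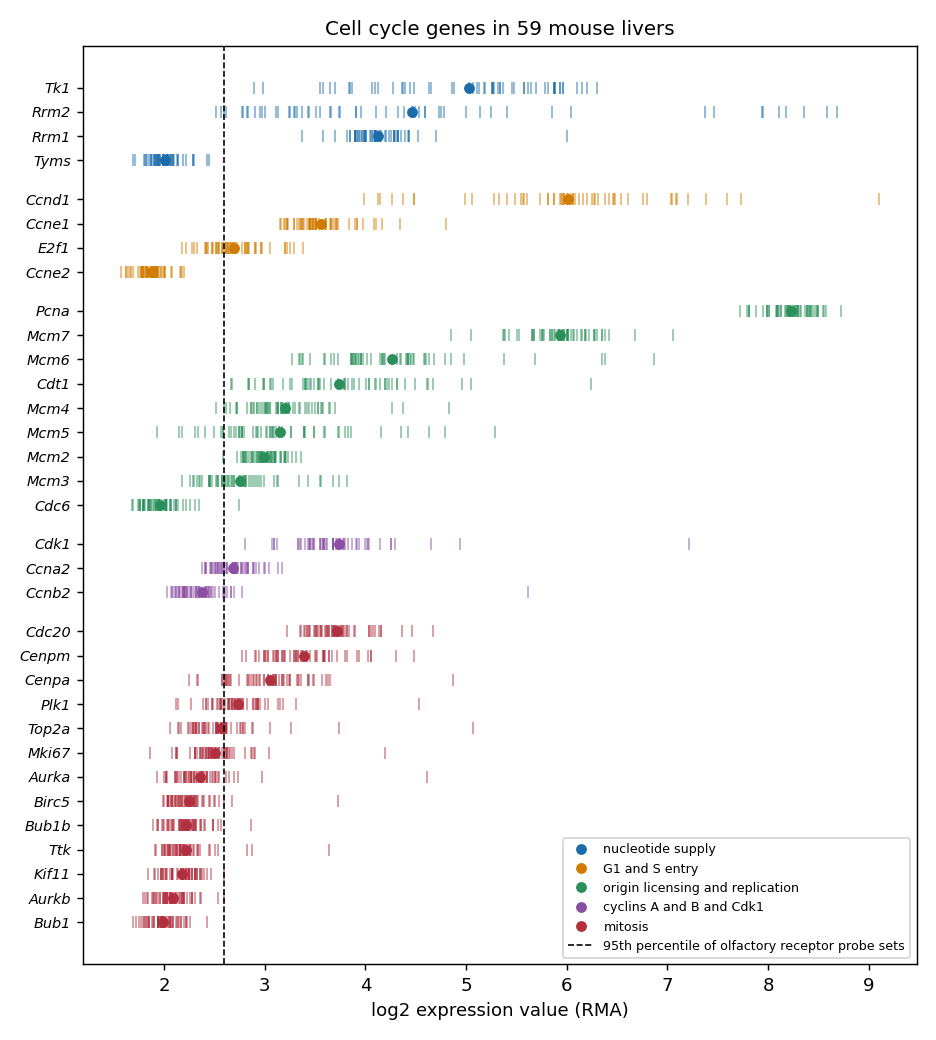
Log2 expression value (x axis) of the 33 measured genes in 59 livers; each tick is 1 liver, each dot the mean over all livers, colours mark the role, and the dashed line marks the olfactory receptor background of 2.59. Rrm2 and Ccnd1 spread over several log2 units between livers. The ticks farthest right for Cdk1, Ccnb2, Top2a, Aurka, Plk1, Cenpa, Mki67 and Birc5 belong to 1 liver. It is replicate E of the group injected with dexamethasone and arsenite.

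Among the genes of nucleotide supply, Rrm2 showed the largest difference of all 33 genes in any comparison. Rrm2 encodes the small subunit of ribonucleotide reductase, the enzyme that turns ribonucleotides into deoxyribonucleotides; the subunit is normally made in S phase and broken down afterwards. Its value was 5.00, 6.04, 5.14, 4.78 and 4.49 in saline-injected livers, replicates A, B, C, E and F. Dexamethasone-injected livers A, C, D, E and F had 8.36, 8.69, 8.18, 7.95 and 8.59. Every dexamethasone liver was thus above every saline liver.

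Because Rrm2 carried this result, the 250 bases before its annotated start are given 5′ to 3′ on the gene's strand, from RefSeq on build GRCm38.p6. In this and the later promoters, capitals mark 3 motifs on either strand, which can overlap: CCAAT (reverse ATTGG), bound by NF-Y; TTTGAA (reverse TTCAAA), the cell cycle homology region, or CHR; and TTTNNCGC (reverse GCGNNAAA), an E2F motif. The Rrm2 stretch holds 1 CCAAT match and none of the other motifs.
Rrm2, chr12:24708004-24708253, plus strand: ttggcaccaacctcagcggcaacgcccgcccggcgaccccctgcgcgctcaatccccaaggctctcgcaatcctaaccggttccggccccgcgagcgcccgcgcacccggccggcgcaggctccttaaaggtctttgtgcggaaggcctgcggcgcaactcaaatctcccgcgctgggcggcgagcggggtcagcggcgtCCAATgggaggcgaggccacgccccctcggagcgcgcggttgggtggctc

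After dexamethasone together with arsenite, Rrm2 was 5.85, 8.11, 7.94, 7.46 and 7.37 in replicates A, C, D, E and F. After arsenite alone it was 4.59, 4.21, 3.55, 3.43 and 5.25 in replicates A, B, D, E and F. The combined group lay above the arsenite group without overlap, while its replicate A fell below the highest saline liver.

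Rrm2 rose by 3.26 (SE 0.39) on the log2 scale with dexamethasone against saline, a 9.59-fold difference (limma, adjusted p = 0.000153). With the combined injection it rose by 2.26 (SE 0.39, adjusted p = 0.00604) against the same saline livers, and dexamethasone added to arsenite raised it by 3.14 (SE 0.39, adjusted p = 0.000321) against arsenite alone. In the last comparison 0.881% of all probe sets were called, and groups did not overlap in 2.01%. The Rrm2 probe set used here is of a kind whose probes may match other transcripts, and 2 further Rrm2 probe sets were read beside it. With dexamethasone they rose by 3.12 (SE 0.30, adjusted p = 1.26e-05) and by 2.97 (SE 0.33, adjusted p = 7.9e-05), and both were also called in the other comparisons that test dexamethasone. In these whole-liver samples, a change in the share of cells that hold an RNA and a change in RNA per cell cannot be told apart.

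**Figure D2:**
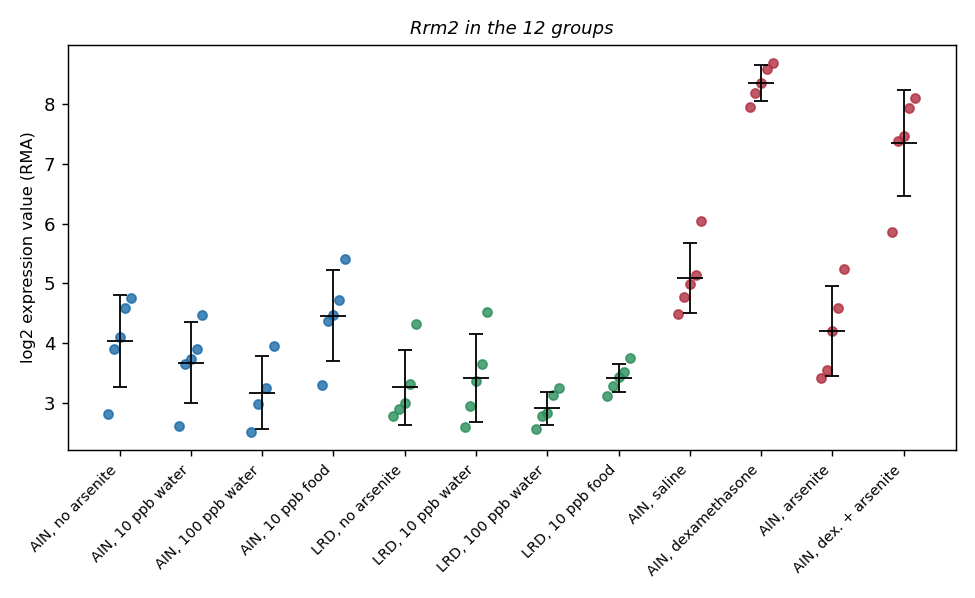
Log2 expression value of Rrm2 (y axis) in the 12 groups (x axis); dots are livers, long bars group means and error bars 1 SD (n = 5, or 4 for AIN-76A with 100 ppb in water). The dexamethasone group (mean 8.35) and the combined group (mean 7.35) stand above all chronic groups, whose means run from 2.91 to 4.46.

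No other gene of the set was called higher with dexamethasone. Of the 33 genes, 1 was called higher with dexamethasone (Rrm2) and 1 lower (Cenpm), where 1.74% of all probe sets were called (0.984% higher and 0.753% lower), and the median difference of the 33 was -0.06, beside -0.02 over all genes. The partner subunit Rrm1 differed by 0.05 (SE 0.22, adjusted p = 0.969) with dexamethasone, with a 95% confidence interval from -0.41 to 0.52. After the combined injection Rrm1 ran from 4.30 to 6.00, above all saline livers (3.85 to 4.28); the difference of 0.66 (SE 0.22, adjusted p = 0.236) was 0.36 without replicate E, which had the value of 6.00. Tyms, thymidylate synthase, was not above the background level. Mki67, Top2a, Ccnb2 and Cdk1 differed by 0.08, -0.02, 0.05 and 0.21, none called, and the first 3 of these were themselves not above background.

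Further genes had sizeable differences with dexamethasone that did not pass the test over all probe sets. Ccnd1, cyclin D1, which carries growth signals into the cycle, was 3.99, 4.48, 4.13, 4.37 and 4.26 in dexamethasone livers A, C, D, E and F, and 5.49, 5.97, 7.74, 6.61 and 5.33 in saline livers A, B, C, E and F. No dexamethasone liver reached the lowest saline liver, a separation that 3.81% of all probe sets showed in this comparison. The difference was -1.98 (SE 0.69, adjusted p = 0.209), and the adjusted p ran from 0.0104 to 0.374 over its alternatives. It was called in a fit of all 59 arrays, in the fit of these 2 groups alone (adjusted p = 0.0179) and without the arrays that stood apart (adjusted p = 0.0389). The saline livers differed widely from each other in Ccnd1, with an SD of 0.98 against 0.20 after dexamethasone.

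Cdt1, which loads the MCM helicase onto origins, was 4.39, 4.20, 4.96, 4.32 and 6.24 in dexamethasone livers A, C, D, E and F and 3.66, 3.07, 2.85, 4.26 and 3.40 in saline livers A, B, C, E and F. The ranges overlapped at replicate C of the first group and replicate E of the second. The difference was 1.38 (SE 0.36, adjusted p = 0.0571). It was called without dexamethasone replicate C (1.53, adjusted p = 0.0414), without saline replicate E (1.58, adjusted p = 0.0397) and under 6 other settings, with adjusted p from 0.00927 to 0.148 over all alternatives. A second Cdt1 probe set was called at 0.69 (SE 0.15, adjusted p = 0.0206), and the other differed by 0.03.

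None of the 6 MCM subunits was called. Mcm6 differed by -1.37 (SE 0.44, adjusted p = 0.151) and Mcm5 by -0.97 (SE 0.37, adjusted p = 0.264) with dexamethasone against saline, while Mcm7 differed by -0.06 (SE 0.18). Saline replicates A and E were high, with Mcm6 at 6.38 and 6.35 against 3.73, 4.41 and 4.43 in B, C and F. Pcna, the sliding clamp of the DNA polymerases, differed by -0.22 (SE 0.14).

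Tk1, the thymidine kinase of the salvage route, was 4.37, 4.12, 3.84, 4.37 and 4.10 in dexamethasone livers and 5.88, 5.70, 4.64, 5.96 and 4.65 in saline livers, in the same order of replicates as above. No dexamethasone liver reached the lowest saline liver. The difference of -1.21 (SE 0.39) was not called (adjusted p = 0.152), but was in the fit of these 2 groups alone (adjusted p = 0.0407; 0.0407 to 0.342 over all alternatives). With the combined injection Tk1 differed by -1.25 (SE 0.39, adjusted p = 0.17) from the same saline livers, again without overlap, as in 2.18% of all probe sets.

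Cenpm, a protein of the centromere complex on which the kinetochore is built, had a lower mean in all 3 drug groups than after saline. Saline livers A, B, C, E and F had 4.03, 3.31, 3.64, 3.52 and 3.94, and dexamethasone livers A, C, D, E and F had 3.001, 2.91, 3.13, 3.09 and 3.19. Arsenite livers A, B, D, E and F had 2.99, 3.12, 2.99, 2.90 and 3.13, and the combined group A, C, D, E and F had 3.08, 3.01, 3.17, 3.31 and 3.20. The combined group touched the saline range through its replicate E, while the dexamethasone and arsenite groups lay below it; for arsenite that held in 0.446% of all probe sets.

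Cenpm fell by 0.62 (SE 0.11, adjusted p = 0.00491) with dexamethasone, and by 0.53 (SE 0.11, adjusted p = 0.0242) with the combined injection, where 0.926% of all probe sets were called. With arsenite alone the difference was -0.66 (SE 0.11), but the adjusted p over all probe sets was 0.497, and no probe set at all was called in that comparison. Without saline replicate B that adjusted p was 0.0338, and over all alternatives it ran up to 1. The call for the combined injection was lost without any 1 of combined replicates A, C and D or saline replicates A and F (adjusted p 0.0514 to 0.0864; 0.00469 to 0.163 over all alternatives). It was also lost in the fit of the combined and saline groups alone (adjusted p = 0.163) and without the arrays that stood apart (-0.51, adjusted p = 0.0601).

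These 3 comparisons share the saline livers, which were also set against uninjected mice. The uninjected AIN-76A controls averaged 3.08 ± 0.21 (SD, n = 5), within the range of the drug group means (3.03 to 3.15), and the saline livers averaged 3.69 ± 0.30 (SD, n = 5). Saline minus uninjected control was 0.61 (SE 0.145, unadjusted p = 0.000115, adjusted p = 1), in a contrast where 0% of all probe sets were called. For Rrm2 the same contrast gave 1.05 (SE 0.39, unadjusted p = 0.00922, adjusted p = 1), and for Mcm2, a helicase subunit, 0.25 (SE 0.10, unadjusted p = 0.0168, adjusted p = 1). The saline livers were killed 8 hours after an injection and the controls after 5 weeks of study, so injection and the rest of the schedule cannot be told apart. A list of 8 glucocorticoid-responsive genes (Fkbp5, Tsc22d3 and others), all above background, averaged between 7.60 and 9.07 in the saline livers, 6.36 and 8.45 in the uninjected controls, and 8.40 and 9.15 after dexamethasone. Their part in these differences was not tested.

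**Figure D3:**
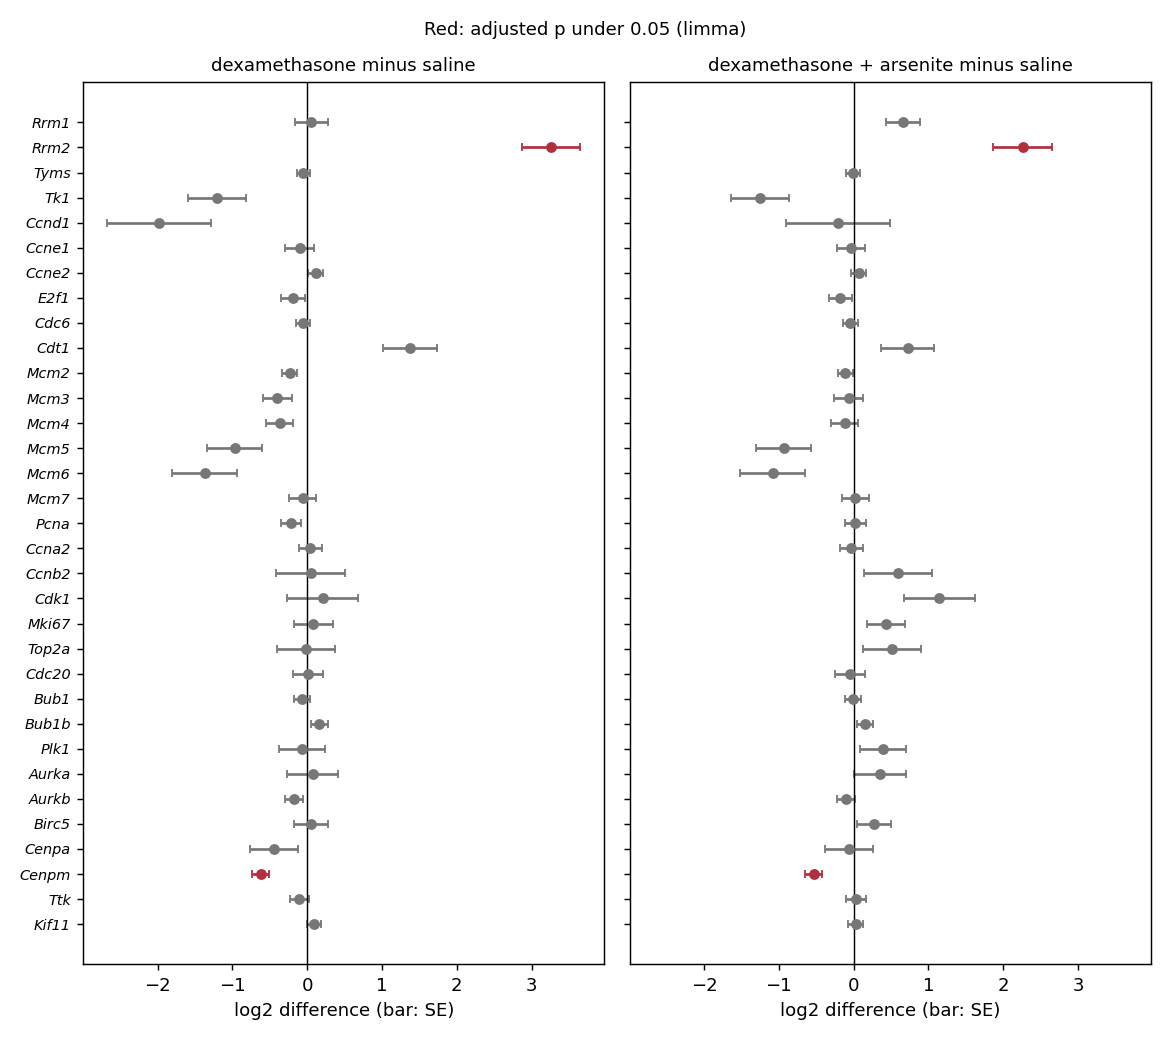
Log2 difference from saline (x axis) of the 33 genes for dexamethasone (left) and for dexamethasone with arsenite (right); points are fitted differences and bars 1 SE, red where the adjusted p was under 0.05. Both panels use the same 5 saline livers; Rrm2 lies far to the right in each, and Cenpm is the other called gene, on the left of 0.

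Other genes of the same pathways were read from 3 further lists. Of 25 measured replication genes outside the set none was called with dexamethasone, with the combined injection, or with dexamethasone added to arsenite, and their medians were -0.09, -0.01 and -0.03. Of 36 further mitosis genes, Ccnf alone was called, and it was higher each time. Ccnf, cyclin F, belongs to a ubiquitin ligase that marks Rrm2 for breakdown, and it rose by 1.10 (SE 0.25, adjusted p = 0.0287), by 1.14 (SE 0.25, adjusted p = 0.0334) and by 1.30 (SE 0.25, adjusted p = 0.0141) in those comparisons. Of 33 cell cycle brakes and G1 genes, Wee1, the kinase that holds Cdk1 inactive, rose with dexamethasone by 0.93 (SE 0.16, adjusted p = 0.00267).

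Cdkn1a, the p21 inhibitor of cyclin-dependent kinases, averaged 6.16 ± 1.57 after saline, 8.39 ± 0.52 after dexamethasone, 5.41 ± 0.96 after arsenite and 8.80 ± 0.60 after both agents (SD, n = 5 each). Against saline it differed by 2.23 (SE 0.58, adjusted p = 0.0588) with dexamethasone, which was not called. It rose by 2.64 (SE 0.58, adjusted p = 0.0319) with the combined injection against saline and by 3.39 (SE 0.58, adjusted p = 0.00577) with dexamethasone in arsenite-injected mice. As a check of the injection, Fkbp5, a glucocorticoid receptor target, rose by 2.98 (SE 0.55, adjusted p = 0.00565) with dexamethasone.

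Tk1 and Cenpm were called between the diets in the comparison averaged over exposures. On LRD-5001 without arsenite, Tk1 was 5.81, 5.93, 5.94, 6.20 and 6.30 in replicates B, C, D, E and F. On AIN-76A it was 5.11, 4.07, 5.03, 5.13 and 4.89 in the same letters, which were not treated as pairs. Every LRD-5001 liver was above every AIN-76A liver, and 1.85% of all probe sets had groups that did not overlap. The difference of 1.19 (SE 0.35) was not called (adjusted p = 0.155) where 0.568% of all probe sets were, but was in the fit of these 2 groups alone (adjusted p = 0.0261) and with the arrays that stood apart as a block (adjusted p = 0.045), with 0.437 as the highest over all alternatives.

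With 100 ppb in water, Tk1 was 5.64, 5.97, 5.47, 5.46 and 5.88 on LRD-5001 (A, B, D, E and F) and 5.26, 2.89, 3.85 and 4.45 on AIN-76A (A, B, C and D), again with no overlap, as in 4.3% of all probe sets. Here it was called, at 1.57 (SE 0.37, adjusted p = 0.0167), beside 2.05% of all probe sets. Without AIN-76A replicate B the difference was 1.16 (adjusted p = 0.143), and without replicate C it was 1.48 (adjusted p = 0.0555); over all alternatives the adjusted p ran from 0.000979 to 0.143. In the fit of these 2 groups alone it was not called (adjusted p = 0.135). Without the arrays that stood apart Cenpa was called beside Tk1 (0.53, SE 0.15, adjusted p = 0.0426). Mcm7 was the other gene whose groups did not overlap there (0.53, SE 0.23, adjusted p = 0.293). With 10 ppb in water and with 10 ppb in food, the Tk1 ranges of the 2 diets overlapped. Tk1 differed there by 0.66 and 0.70, neither called. The lowest Tk1 values on AIN-76A at these exposures, in replicate C (3.58) and replicate D (3.65), came from arrays that stood apart. Averaged over the 4 exposures, Tk1 was higher on LRD-5001 by 1.03 (SE 0.18, adjusted p = 0.000165), and the call held with each of the 39 livers left out (0.93 to 1.13).

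Cenpm averaged between 3.59 and 3.86 in the 4 LRD-5001 groups and between 3.08 and 3.45 in the 4 AIN-76A groups. The difference averaged over exposures was 0.50 (SE 0.08, adjusted p = 5.05e-05), and between 0.46 and 0.53 with any 1 liver left out, called each time. In the averaged comparison 2 of the 33 genes were called, both higher on LRD-5001, beside 4.26% of all probe sets (2.67% higher). The median difference of the 33 genes was 0.01 and that of all genes -0.01.

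At the single exposures, Cenpm differed by 0.57 without arsenite, by 0.34 with 10 ppb in water and by 0.41 with 100 ppb in water, none called. It was called with 10 ppb in food at 0.70 (SE 0.16, adjusted p = 0.0362), where 0.295% of all probe sets were called and LRD-5001 replicates B, C, D, E and F had 4.06, 4.48, 3.51, 3.30 and 3.59, against 3.25, 3.36, 2.78, 3.03 and 3.03 on AIN-76A (A, C, D, E and F). These ranges overlap. The call was lost without AIN-76A replicate A, D, E or F or LRD-5001 replicate B or C (adjusted p up to 0.194), and it was lost in the fit of these 2 groups alone (adjusted p = 0.433), after quantile normalization (adjusted p = 0.0637), and without the arrays that stood apart (0.44, adjusted p = 0.453, the highest over its alternatives). With 10 ppb in water no gene of the set was called, beside 0.344% of all probe sets, and Ccnb2 (0.29), Cdc6 (-0.29) and Ccna2 (0.23) had the smallest p, at adjusted p of 0.469, 0.587 and 0.587. Without arsenite Tyms was next after Cenpm and Tk1, at 0.27 (SE 0.10, adjusted p = 0.41).

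**Figure D4:**
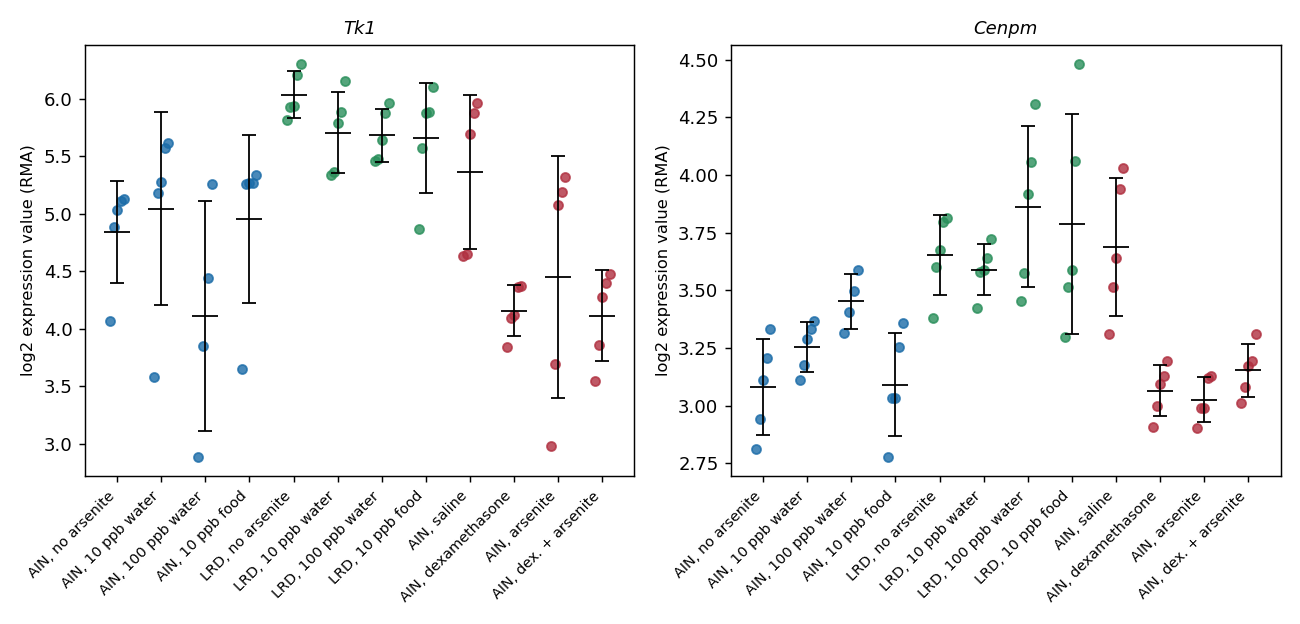
Log2 expression values of Tk1 (left) and Cenpm (right) in the 12 groups; dots are livers, long bars means and error bars 1 SD (n = 5, or 4 for AIN-76A with 100 ppb in water). Group means on LRD-5001 (green, 5.66 to 6.04 for Tk1) lie above those of the uninjected AIN-76A groups (blue, 4.11 to 5.04), and for Cenpm the saline group stands above the 3 drug groups.

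Rrm2 had diet differences of the opposite sign. Averaged over exposures it differed by -0.58 (SE 0.19, adjusted p = 0.077) on LRD-5001, while its other probe sets were called, at -0.37 (SE 0.08, adjusted p = 0.00434) and -0.30 (SE 0.08, adjusted p = 0.0113). The main probe set was called under 4 settings, among them without the arrays that stood apart (adjusted p = 0.0217), and when 1 of 5 livers was left out, which were replicates C of the AIN-76A control, 10 ppb food and 10 ppb water groups, C of the LRD-5001 control and A of LRD-5001 with 10 ppb in water (adjusted p 0.0247 to 0.0342). Over all alternatives its adjusted p ran from 0.00116 to 0.128. The second of the other probe sets was also called between the diets without arsenite, at -0.71 (SE 0.15, adjusted p = 0.0118), where 0.568% of all probe sets were called. The main probe set differed there by -0.77 and was not called.

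From the further lists, Mcm10, which helps start the fork, was higher on LRD-5001 averaged over exposures by 1.02 (SE 0.17, adjusted p = 7.58e-05). Stmn1, a protein that destabilises microtubules, was higher by 0.63 (SE 0.14, adjusted p = 0.00374), and Ccnf fell by 0.58 (SE 0.10, adjusted p = 0.000137). These were the called genes among 25 replication and 36 mitosis genes. Of 33 brakes and G1 genes, Cdkn1a fell by 1.02 (SE 0.23, adjusted p = 0.00411) and Tob1, an inhibitor of proliferation, was higher by 0.68 (SE 0.15, adjusted p = 0.00346).

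Clock genes and immune markers moved with diet as well. Of 8 clock genes, 6 were called in the averaged comparison, led by Arntl (-1.15, SE 0.12, adjusted p = 2e-08) and Tef (0.91, SE 0.10, adjusted p = 4.04e-08), and Dbp differed by 2.85 (SE 0.36, adjusted p = 8.84e-07). With 100 ppb in water, Fkbp5 and Cdkn1a were also lower on LRD-5001, with differences of -2.26 (SE 0.45, adjusted p = 0.00405) and -2.59 (SE 0.48, adjusted p = 0.00179). In the same comparison S100a8 and S100a9, made by neutrophils, differed by -3.21 and -3.01 (adjusted p = 0.00612 and 0.00609), Ngp by -0.83 (adjusted p = 0.0343), and 0 of 7 Kupffer cell markers were called. The 8 glucocorticoid-responsive genes averaged 8.48 in the AIN-76A group with 100 ppb, against 6.615 to 7.29 in the other uninjected AIN-76A groups. By liver they averaged 6.90, 9.375, 9.50 and 8.16 in replicates A, B, C and D. The Tk1 call was lost without B or without C. Averaged over exposures, S100a8 and S100a9 differed by -1.25 and -1.30 (adjusted p = 0.0152 and 0.00557), and 3 of 7 Kupffer cell markers were called lower. The part of time of day, glucocorticoid level and these cells in the Tk1, Cenpm and Rrm2 differences was not tested.

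Arsenite by itself gave no call in the set under any exposure. In the 6 chronic comparisons none of the 33 genes was called by limma, beside 0% of all probe sets in 5 of them and 0.00888% for 100 ppb in water on AIN-76A. At an unadjusted p under 0.05 there were 2, 8 and 1 genes on AIN-76A (10 ppb water, 100 ppb water, 10 ppb food) and 1, 0 and 2 on LRD-5001. Of all 45037 probe sets, 2178, 3996 and 1635 reached that p on AIN-76A, and 1054, 1055 and 1031 on LRD-5001. The 3 AIN-76A comparisons share 1 control group, and the 3 on LRD-5001 another.

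Of those 8 genes with 100 ppb in water on AIN-76A, 7 were lower and Cenpm was higher. Those with the smallest p were Pcna (-0.40, SE 0.14, adjusted p = 0.322), Cenpa, the histone H3 variant of centromeres (-0.58, SE 0.21, adjusted p = 0.353), and Ccne2, cyclin E2 (-0.20, SE 0.09, adjusted p = 0.461). Without the arrays that stood apart 2 genes were called lower, Cenpa (-0.86, SE 0.15, adjusted p = 0.00866, the lowest of a range up to 0.965) and Ccnd1 (-1.20, SE 0.31, adjusted p = 0.0471). The 33 genes had a median difference of -0.12 there, beside 0.00 over all genes, and of -0.04 when AIN-76A control replicate E, described below, was left out.

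The remaining chronic comparisons stayed close to 0 in their medians. With 10 ppb in water on AIN-76A the smallest p belonged to Ccnd1 (-0.79, SE 0.30, adjusted p = 0.993), followed by Tyms (0.22) and Mcm6 (-0.74). With 10 ppb in food on AIN-76A it was Ccne2 (-0.20, SE 0.08, adjusted p = 1), Ccne1 (-0.33) and Tyms (0.16). On LRD-5001, Aurka, the kinase of spindle poles, led at 10 ppb in water (0.25, SE 0.11), ahead of Bub1 (0.16) and Rrm1 (0.22). Tyms led at 100 ppb (-0.15, SE 0.10), ahead of Mcm3 (0.33) and Cenpm (0.21), and Ccnd1 at 10 ppb in food (0.72, SE 0.30), ahead of Aurka (0.24) and Mcm3 (0.46). All of these had an adjusted p of 1. The 95% confidence intervals kept 28, 24 and 32 of the 33 genes within a 2-fold change on AIN-76A and 30, 31 and 28 on LRD-5001, in the order above.

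Injected arsenite also gave 0 calls, with 4 genes at an unadjusted p under 0.05 (Cenpm, Tk1 and Rrm2 lower, Bub1b higher) and 0% of all probe sets called. That unadjusted p was reached by 1414 of 45037 probe sets. Added to dexamethasone, arsenite gave 0 calls and 3 such genes, beside 1744 of 45037 probe sets. Rrm2 then differed by -1.005 (SE 0.39, adjusted p = 0.999), Rrm1 by 0.61 (SE 0.22) and Ccnd1 by 1.77 (SE 0.69). Tests of whether diet changed the effect of arsenite, or arsenite the effect of dexamethasone, also called none of the 33 genes, beside 0% of all probe sets. For diet these were led by Ccnd1 with 10 ppb in water (1.26, SE 0.43, adjusted p = 0.999; then Tyms at -0.33 and Aurka at 0.29), Cenpa with 100 ppb (0.66, SE 0.29, adjusted p = 0.797; then Ccnd1 at 1.001 and Mcm7 at 0.70) and Tyms with 10 ppb in food (-0.28, SE 0.14, adjusted p = 1; then Ccnd1 at 0.81 and Ccne1 at 0.47). For dexamethasone and arsenite Cenpm led at 0.75 (SE 0.16, unadjusted p = 0.000145, adjusted p = 1), ahead of Pcna (0.44) and Rrm1 (0.63).

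One liver of the combined group, replicate E, had the highest value of all 59 for 10 of the 33 genes, beside 790 of 18193 genes (4.34%). They were Cdk1 at 7.21 (the other 58 livers reached at most 4.95), Ccnb2 at 5.62 (at most 2.78), Ccnd1 at 9.10 (at most 7.74) and Rrm1 at 6.00 (at most 4.71), with 6 mitosis genes. Among those, Top2a, the enzyme that untangles replicated DNA, stood at 5.07 and no other liver exceeded 3.74. Aurka stood at 4.61 (at most 2.97), Plk1, a kinase of mitotic entry, at 4.54 (at most 3.31), and Cenpa at 4.87 (at most 3.65). Mki67, the Ki-67 proliferation antigen, was 4.20 (at most 3.04), and Birc5, survivin, was 3.73 (at most 2.67). Bub1, Bub1b, Aurkb, Ttk, Kif11, Cdc20 and Cenpm were not highest there.

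In the same liver the further mitosis list was high too, with 18 of 36 genes at their highest of 59. Ube2c, which helps tag mitotic cyclins for breakdown, was 7.46 against a median of 2.55 in the other livers, and Cdca3 was 5.73 against 2.48. Only 1 of 25 further replication genes was highest there, and none of the 9 licensing genes of the set. The promoters of Ccnb2, Cdk1 and Top2a are shown. Among the 10 genes of the set highest there, Cdk1 and Ccnb2 had the largest excess over the median of the other livers (3.56 and 3.34). Top2a had the largest of the set's mitosis genes (2.55). Rrm2, not at its highest of 59 there, had an excess of 3.55. Each promoter is the 250 bases before the start, in the form used for Rrm2. Ccnb2 holds 3 CCAAT matches and 1 CHR, Cdk1 has 3 CCAAT, 2 CHR and 2 E2F, and Top2a has 6 CCAAT and 2 CHR.
Ccnb2, chr9:70421555-70421804, minus strand: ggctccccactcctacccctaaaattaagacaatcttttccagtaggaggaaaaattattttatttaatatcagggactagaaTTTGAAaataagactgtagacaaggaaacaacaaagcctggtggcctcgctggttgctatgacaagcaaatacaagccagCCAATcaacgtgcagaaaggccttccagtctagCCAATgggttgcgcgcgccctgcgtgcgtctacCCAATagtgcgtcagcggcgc
Cdk1, chr10:69352913-69353162, minus strand: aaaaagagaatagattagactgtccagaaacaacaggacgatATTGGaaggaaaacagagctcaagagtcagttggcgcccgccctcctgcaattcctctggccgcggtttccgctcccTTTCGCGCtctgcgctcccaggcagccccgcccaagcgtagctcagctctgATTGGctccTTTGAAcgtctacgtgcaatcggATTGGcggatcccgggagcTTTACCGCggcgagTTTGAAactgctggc
Top2a, chr11:99024190-99024439, minus strand: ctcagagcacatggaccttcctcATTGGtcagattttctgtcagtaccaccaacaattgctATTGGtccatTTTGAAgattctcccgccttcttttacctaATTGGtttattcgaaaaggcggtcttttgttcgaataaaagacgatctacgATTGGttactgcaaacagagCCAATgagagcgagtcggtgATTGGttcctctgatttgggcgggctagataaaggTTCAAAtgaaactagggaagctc

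This liver and these genes were singled out after their values were seen, so the counts are a description. Replicate E was also the array of its group that stood apart. Its 6 stellate cell and collagen markers had a mean of 6.51, above every other liver (highest 5.83), with Col3a1 at 9.47 and Col1a2 at 8.14, and the hepatocyte markers had their highest mean there as well (13.39). None of the markers of T and NK cells (7), B and plasma cells (6), neutrophil precursors (7) or Kupffer cells (7) was at its highest of 59, and 1 of 6 erythroid markers was. All 7 Kupffer cell markers were above the median of the other livers, among them Marco (5.71 against 3.80) and Cd68 (6.07 against 4.95). The part of other cell types in the mitotic values was not tested. Of the other 11 arrays that stood apart, replicate C of AIN-76A with 10 ppb in water held the highest value for 4 of the 33 genes (Ttk, Mcm3, Cdc6 and Tyms) and for 2 of 36 further mitosis genes, beside 6.47% of all genes. The remaining 10 held it for between 0 and 2 of the 33.

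Without replicate E the mitotic differences of the combined group were smaller. Cdk1 minus saline went from 1.15 to 0.53 (SE 0.29), Ccnb2 from 0.60 to -0.08 (SE 0.13) and Aurka from 0.35 to -0.13 (SE 0.15), while Rrm2 was at 2.23 (SE 0.42, adjusted p = 0.01). Rrm2 was 7.46 in replicate E, in the middle of its group. In the fit of all 59 arrays, with replicate E included, Cdk1 and Rrm1 were called with the combined injection (adjusted p = 0.0479 and 0.0274).

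A different liver, replicate E of the AIN-76A control group, was high in replication genes. It held the highest value of 59 for Mcm4 (4.83), Mcm5 (5.28), Mcm6 (6.87) and Mcm7 (7.06), all subunits of the replicative helicase, and for no other gene of the set, beside 102 of 18193 genes (0.561%). The other 4 control livers had 3.66 to 4.48 for Mcm6 and 2.18 to 3.17 for Mcm5. Of the further lists, Rfc3, Dnmt1, Pola1, Cdk2 and Rbl1 were at their highest of 59 there, and no mitosis gene of the set or of the further list was. Top2a (3.05), Mki67 (2.87) and Cenpa (3.61) lay above the medians of the other livers (2.52, 2.47 and 3.06), and the mean over the 13 mitosis genes was 2.65, the highest of the control group, beside a median of 2.54 over all livers. Its mean over the 9 licensing genes was 5.10, beside 4.69 in the next liver and a median of 3.98.

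The Mcm5 and Mcm6 promoters are shown because these genes led in this liver, again as the 250 bases before the start. Mcm5 holds 2 CCAAT and 2 E2F matches, Mcm6 holds 2 CCAAT and 3 E2F, and neither holds a CHR.
Mcm5, chr8:75109259-75109508, plus strand: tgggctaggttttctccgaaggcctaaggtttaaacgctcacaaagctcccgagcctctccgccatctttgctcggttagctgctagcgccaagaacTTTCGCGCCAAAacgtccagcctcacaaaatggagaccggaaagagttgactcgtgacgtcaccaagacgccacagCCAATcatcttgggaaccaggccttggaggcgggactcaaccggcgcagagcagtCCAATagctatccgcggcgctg
Mcm6, chr1:128359706-128359955, minus strand: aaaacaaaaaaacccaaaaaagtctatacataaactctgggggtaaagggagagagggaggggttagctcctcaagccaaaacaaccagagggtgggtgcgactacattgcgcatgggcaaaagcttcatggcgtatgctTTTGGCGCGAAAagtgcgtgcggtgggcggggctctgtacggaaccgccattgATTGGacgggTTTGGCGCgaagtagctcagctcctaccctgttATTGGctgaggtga

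In the same AIN-76A control liver the 7 Kupffer cell markers averaged 7.76, the second highest of 59 after saline replicate E (8.84). That saline liver also had high Mcm5 (4.43) and Mcm6 (6.35), as had saline replicate A (4.79 and 6.38), whose Kupffer cell and neutrophil precursor means were 7.202 and 2.871. Saline replicate E had the highest mean of the neutrophil precursor list (6.89, next 4.67), of which 2 of 7 genes are above background over all arrays. In AIN-76A control replicate E the listed clock genes other than Nr1d1 lay outside the range of the other control livers. Among them were Dbp (3.10 against 5.83 to 6.925) and Arntl (5.43 against 4.445 to 4.97). The part of these cells and of time of day in the MCM values was not tested. Leaving out AIN-76A control replicate E changed the diet difference without arsenite. For Mcm6 it went from -0.50 to 0.07 (SE 0.31) and for Mcm5 from -0.27 to 0.22 (SE 0.33), neither called either way.

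**Figure D5:**
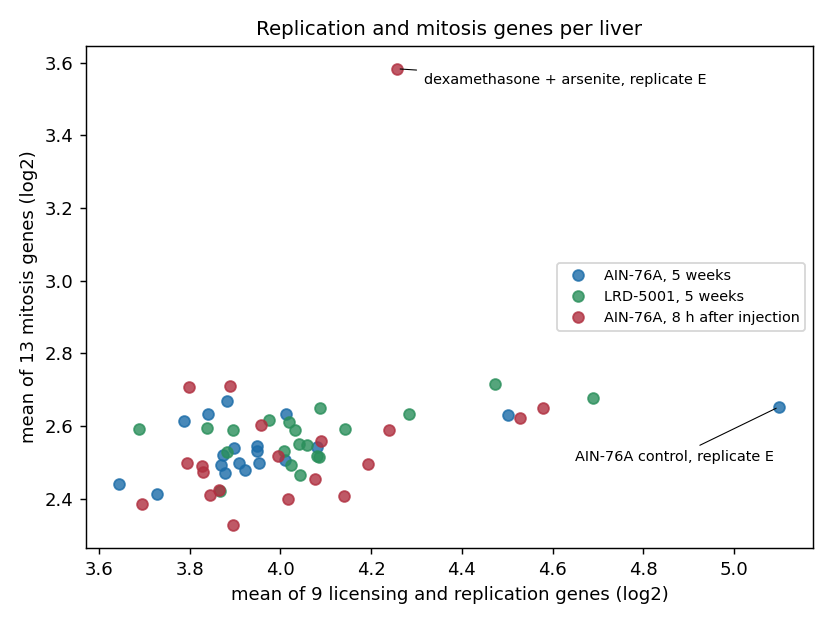
Mean log2 value of the 9 licensing and replication genes (x axis) against that of the 13 mitosis genes (y axis), 1 point per liver (59), coloured by diet and experiment. One combined-injection liver lies at 3.58 on the mitosis axis, where the next liver reaches 2.72, and one AIN-76A control liver lies at 5.10 on the replication axis.

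Deviations from the group means showed how the genes moved together across livers. Over all pairs of the 33 genes the median correlation was 0.13 (n = 59 livers). Among Mcm4, Mcm5, Mcm6 and Mcm7 it was 0.61, and 0.62 without combined replicate E. These genes were at their highest of 59 in AIN-76A control replicate E, and no correlation was computed without that control liver. Whether their joint movement rested on it was thus not tested. Among Ccnb2, Cdk1, Mki67, Top2a, Plk1, Aurka and Birc5 the median correlation was 0.72, and 0.29 without combined replicate E. Most of their joint movement thus rested on that liver, where all of these genes were at their highest of 59. Of these genes, Ccnb2, Mki67, Top2a, Aurka and Birc5 were not above background, which limits any correlation in the other livers. The values share arrays and their normalization, and both gene groups were picked after their values were seen.

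Motifs were counted in the windows of 250 bases before to 50 after the start, which were at hand for 28 of the 33 measured genes. CCAAT was in 21 of the 28, CHR in 12 and the E2F motif in 9, beside 37.9%, 18.1% and 5.27% of 27025 mouse promoters. Of the 10 genes highest in combined replicate E, 9 had a window, with CCAAT in 8, CHR in 7 and E2F in 1, which was Cdk1. Of the other 19 genes, 13 had CCAAT, 5 had CHR and 8 had E2F. Mcm5, Mcm6 and Mcm7 held 2, 3 and 2 E2F matches and no CHR, and Mcm4 had no window. The glucocorticoid response element, the motif of the receptor that dexamethasone binds, was in none of the 28 windows and in 0.463% of all promoters; that says only that these letters are not in this stretch.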

How the data were processed

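Total RNA from frozen livers was hybridised to Affymetrix mouse arrays, 1 array per liver. The authors deposited log2 expression values made by RMA, per the submitters' processing notes; which software ran it, and how, is not stated there. RMA equalises probe intensities between arrays before it summarises them, so a shift of all genes could go unseen. The upper quartile of the deposited values still ran from 3.73 to 4.29 between arrays. Tests covered 45037 of the 45101 probe sets; the remaining 64 are array controls. The platform annotation gave 34945 probe sets a single symbol and 932 several; 23 of the 33 measured genes had several probe sets.

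Linear models with 1 mean per group (limma 3.58.1, R 4.3.3; lmFit and eBayes) ran over the 39 chronic arrays, over the 20 injection arrays, and over all 59 for saline against uninjected controls. P-values are two-sided and were adjusted by Benjamini-Hochberg over all 45037 probe sets. The procedure was tested on simulated data for the dexamethasone comparison over 45037 probe sets, where it recovered 100% of 100 probe sets changed by 3 log2 units and 98% of 100 changed by 1.5. The changed probe sets were picked at random and the noise was drawn independently for each array, while the real arrays share a component. These shares need not hold for genes that vary more, such as Ccnd1. Alternatives changed the arrays fitted, the normalization, the choice or mean of probe sets, the filter on low values, the variance trend, the arrays that stood apart, and left out each liver in turn. All 33 measured genes are accounted for. Named with values are genes called in a comparison, the brightest genes on average, the 3 with the smallest p where none was called, and up to 4 genes of each further list; those of single livers, and Rrm1, Mcm5 and Mcm6, were named after their values were seen. Members and lists were chosen with earlier results of these data known. Motifs were matched as plain letters in the first RefSeq window listed for a gene.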

Additional observations from a re-analysis of the deposited data

Results flagged for a closer look

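In 396 sets of values (33 genes in 12 groups), 35 single livers lay far from the rest of their group; chance flags about 1 in 20 groups. Of these, 10 fell in combined-injection replicate E: Rrm1 (6.00), Ccnb2 (5.62), Mki67 (4.20), Top2a (5.07), Plk1 (4.54), Aurka (4.61), Aurkb (2.35), Birc5 (3.73), Cenpa (4.87) and Ttk (2.82).

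In the other injected livers, the values far from their group were Ccne1 in combined replicate A (4.35) and E2f1 in combined replicate F (2.82), Ccne2 in arsenite replicate E (1.62), Top2a in arsenite replicate A (3.74), Cdk1 in dexamethasone replicate E (4.95) and Pcna in saline replicate E (8.58).

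In the AIN-76A control group they were Mcm3 (3.68) and Mcm6 (6.87) in replicate E, Tk1 (4.07), Ccne1 (4.805) and Aurkb (2.30) in replicate C, and Birc5 in replicate D (2.035). With 10 ppb in water they were Tk1 (3.58), Mcm6 (3.38) and Ttk (3.64) in replicate C, Top2a in D (2.32) and Mki67 in E (2.90). Replicate C of each of these groups was also its array that stood apart.

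With 100 ppb in water on AIN-76A they were Kif11 in replicate B (1.97), Cdk1 in C (3.35) and Bub1b in D (2.87). With 10 ppb in food on AIN-76A they were Plk1 in replicate A (2.93), Tk1 in D (3.65) and Birc5 in F (2.50). On LRD-5001 they were Rrm1 in control replicate B (3.37) and Cdc6 in replicate C of the 10 ppb food group (2.30).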

How the results depend on the processing

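Results were compared over all settings other than leaving out single livers. Of the values, 816 were classed as the same, 26 as stronger (such as a call gained), 10 as weaker (such as a call lost) and 2 as moved. None changed sign. These classes take single genes and counts of called genes together, and more counts changed than the 2 classed as moved. Fitting all 59 arrays together called 4 of the 33 genes with dexamethasone (2 in the report), 4 with the combined injection (2) and 3 with dexamethasone in arsenite-injected mice (1). Fitting only the groups compared called 4 with dexamethasone, 1 with the combined injection, and between diets 1 without arsenite (0 in the report), 0 at 100 ppb in water (1) and 0 at 10 ppb in food (1). Quantile normalization left 0 at 10 ppb in food. The arrays that stood apart as a block gave 1 between diets without arsenite. Without those 12 arrays there were 2 between diets at 100 ppb in water, 0 at 10 ppb in food, 2 for 100 ppb in water on AIN-76A (0 in the report) and 1 with the combined injection. Ccnd1 was then added with dexamethasone, and Rrm2 between diets averaged over exposures. Rrm2 was also added there with the mean of probe sets, the filter on low values and the block. With dexamethasone, Cdt1 was added under those settings, with a single probe set per gene and with the variance trend. The cause of these shifts was not tested.

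Leaving out single livers moved the count between 0 and 1 for diet at 10 ppb in food, for diet at 100 ppb in water and for injected arsenite. It moved between 1 and 2 for the combined injection, and between 2 and 3 for dexamethasone and for diet averaged over exposures. The livers are named beside Tk1, Cenpm, Cdt1 and Rrm2 in the report. The labels do not say what the replicate letters mark, and they were not treated as pairs. Deviations of same-letter livers had a median correlation of -0.00 over 267 pairs, of which 80 were over 0.1. Over 1328 pairs of different letters the median was -0.01. With the letter as a replicate block, 3 genes were called with dexamethasone, in place of 2 (Mcm6 at -1.47, adjusted p = 0.0217, was added), and no other count changed. A probe set near background can miss a change, which limits 13 of the 33 genes, most of them mitotic.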
